A study of Mus musculus with 2 samples.

Results

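The 10 genes described here encode secreted signals of the lung: the cytokines *Il6*, *Il1b*, *Il33* and *Csf1* and the chemokines *Cxcl1*, *Cxcl12*, *Cxcl14*, *Cxcl15*, *Ccl2* and *Ccl17*. They are 10 of 32285 genes in the count matrices, chosen by name, and their levels were followed by the cell that carried the transcript. Live UV-positive cells, selected by the fluorescence of their own retinoid at 455 nm, had been sorted from pronase and collagenase digests of lungs of wild type C57BL/6 mice aged 3 months. Both single-cell libraries belong to that one condition, with no untreated or treated arm and no other genotype. The labels do not say how many mice went into a library. The p-values below therefore measure only how differences between cell groups varied between these 2 libraries, a spread that may be technical.

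Cytokines and chemokines are small secreted proteins that act on neighbouring or circulating cells through surface receptors. Chemokines guide leukocytes through G protein-coupled receptors, whereas interleukins and colony stimulating factors control inflammation, growth and survival. In the lung, fibroblasts, endothelium, alveolar epithelium and resident leukocytes each release a different set of them. Cells that store retinoid in the lung are largely lipid-laden fibroblasts.

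Cells with at least 200 genes and at most 10% mitochondrial unique molecular identifiers (UMIs) were kept, 9634 of 9669 barcodes in library 1 and 9988 of 10050 in library 2. A kept cell entered a group when it held at least 3 UMIs of exactly 1 gate. The gates were *Col1a2*, *Mfap4* and *Pdgfra* for stromal cells, *Cdh5*, *Pecam1* and *Egfl7* for endothelial cells, *Epcam*, *Cdh1* and *Lamp3* for epithelial cells, and *Ptprc*, *Laptm5* and *Cd52* for immune cells. Stromal cells with at least 3 UMIs of *Dcn* (decorin, a matrix proteoglycan) were called adventitial and those with 0 alveolar, and the cells between them are given as intermediate. Libraries 1 and 2 held 1017 and 998 adventitial, 5805 and 5545 alveolar, 56 and 360 endothelial, 930 and 101 epithelial, and 266 and 334 immune cells. Levels (CPM) are a gene's UMIs per 1000000 summed UMIs of a group in a library, so a level joins the share of cells that carry a transcript with the amount in each. Calls are from edgeR's quasi-likelihood test on the sums, with the library as a block, at an adjusted p under 0.05 over 13326 genes.

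The groups were checked against marker genes outside the gates. *Col1a1* stood at 1285 and 1452 CPM in adventitial and at 1.85 and 2.93 CPM in epithelial cells (libraries 1 and 2). The 4-gene stromal list that holds it summed to 5879 and 6484 CPM in adventitial and 4562 and 4324 CPM in alveolar cells. It summed to 326 and 188 CPM in endothelial, 54.7 and 48.0 CPM in immune and 16.2 and 18.3 CPM in epithelial cells. *Cldn5*, a tight junction gene of endothelium, was at 5011 and 4061 CPM in endothelial and at most 3.86 CPM in the other groups. *Tyrobp*, a leukocyte adaptor, was at 3433 and 1517 CPM in immune and at most 2.53 CPM elsewhere. *Npnt*, an alveolar fibroblast gene, was at 1973 and 2446 CPM in alveolar against 761 and 1396 CPM in adventitial cells, and *Pi16*, an adventitial gene, at 204 and 46.5 CPM in adventitial against 0.597 and 0.309 CPM in alveolar cells, although immune cells held 33.1 and 9.38 CPM of it. The other adventitial markers were not all particular to stroma, since *Ly6c1* stood at 12.2 and 4.49 CPM in adventitial but at 1715 and 2249 CPM in endothelial cells. Through it the 4-gene adventitial list summed to 995 and 958 CPM in adventitial, 309.9 and 374 CPM in alveolar and 1757 and 2273 CPM in endothelial cells. The 4-gene alveolar fibroblast list, with *Npnt*, summed to 6773 and 6994 CPM in adventitial and 10789.1 and 10829.7 CPM in alveolar cells. Adventitial cells thus also carried many alveolar fibroblast transcripts. The epithelial group was alveolar type 2-like in 930 of 930 and 95 of 101 cells. The list behind this count holds *Lamp3*, a gene of the epithelial gate, so the count is not independent of the gate. *Sftpc*, a surfactant gene outside the gate, stood at 245331 and 196165 CPM in epithelial cells and at most 519 CPM in the other groups. Library 1 had 48762735 UMIs, with a median of 4480 per kept cell, and library 2 had 93970185, with a median of 7577.5. Barcodes that passed several gates were 4.36% of the kept cells in library 1 and 16.4% in library 2, and they entered no group. The libraries shared 23 barcode sequences.

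**Figure D1:**
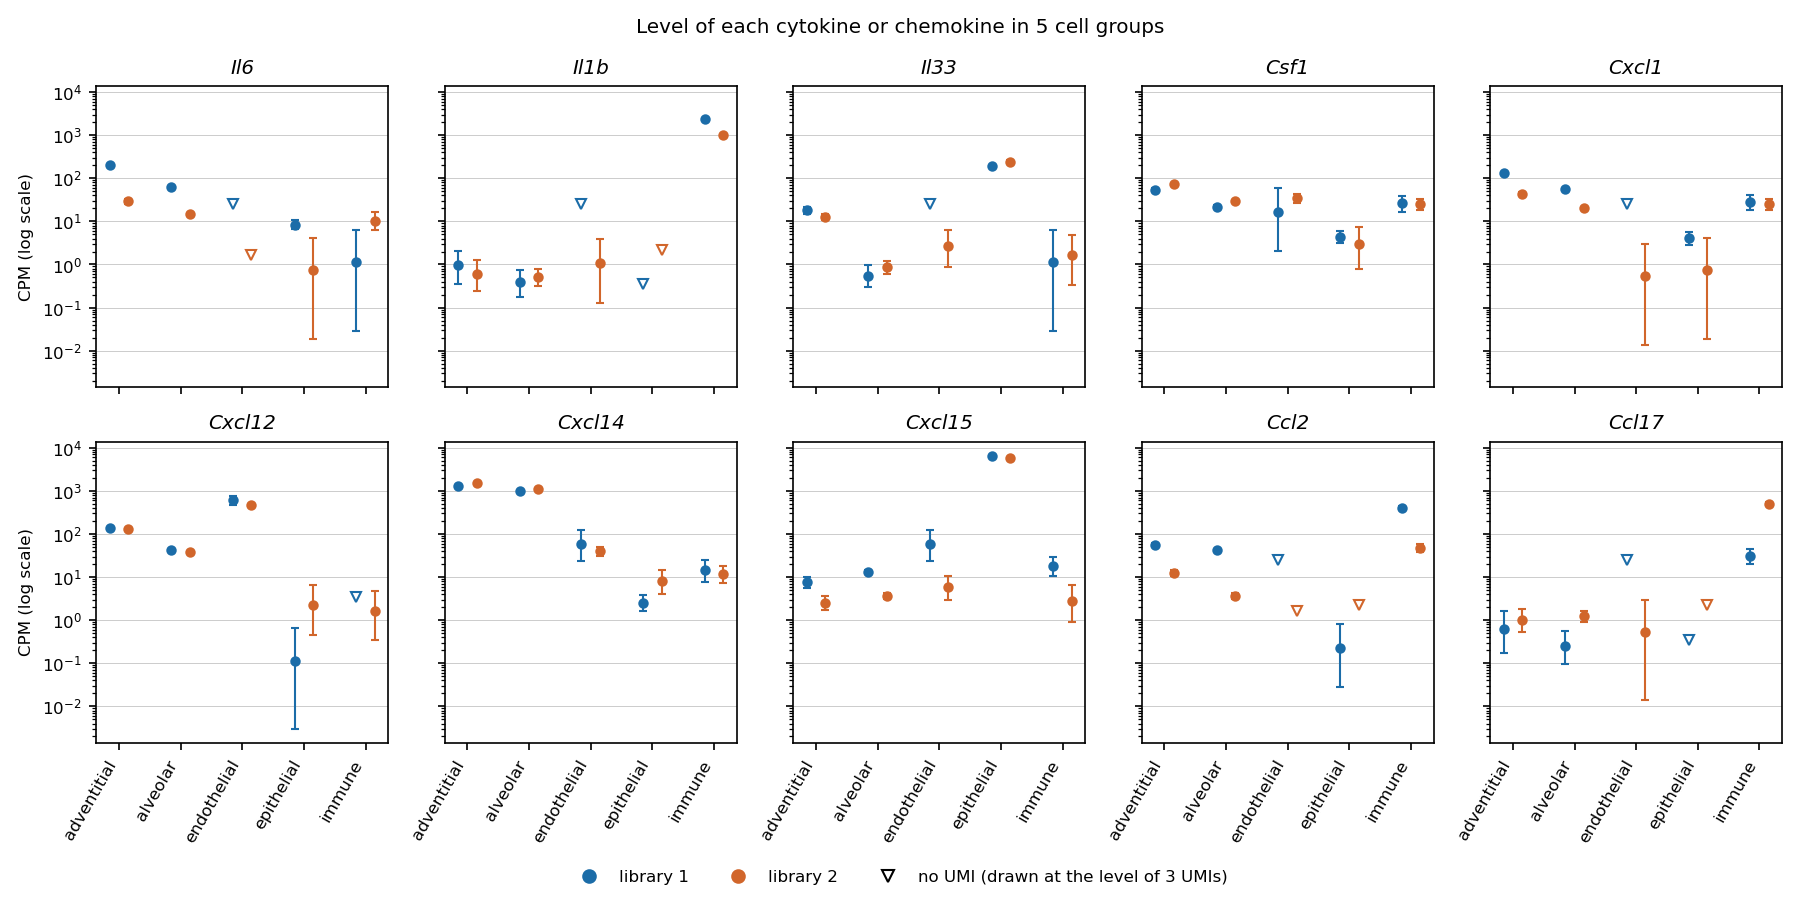
Level (CPM, log scale) of the 10 genes in the 5 cell groups, 1 panel per gene; points are single libraries with 95% Poisson counting intervals, and open triangles mark groups with no UMI at the level of 3 UMIs. *Cxcl14* stood at 972 to 1548 CPM in both stromal groups and at most 58.6 CPM elsewhere, *Cxcl15* at 6616 and 5749 CPM in epithelial cells, and *Il1b* at 2364 and 1009.9 CPM in immune cells.

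For 9 of the 10 genes the highest group passed the test against the second highest. This was the case for 33.0% of the 13326 genes tested. DESeq2 did not make this call for *Il6*, *Cxcl1* and *Cxcl12*, nor did edgeR without the library block for *Il6*, *Csf1*, *Cxcl1* and *Ccl2*. Adventitial cells were highest for *Il6*, *Csf1*, *Cxcl1* and *Cxcl14*, endothelial cells for *Cxcl12*, epithelial cells for *Il33* and *Cxcl15*, and immune cells for *Il1b*, *Ccl2* and *Ccl17*. *Cxcl14* was the exception, with no call between its 2 stromal groups. The other pairs of groups were set against their own background too. Adventitial cells differed from endothelial cells for 7 of the 10 genes (33.2% of all genes), from epithelial cells for 9 (48.2%) and from immune cells for 9 (50.8%). Alveolar cells differed from endothelial cells for 5 (33.0%), from epithelial cells for 9 (51.1%) and from immune cells for 6 (52.5%). Endothelial cells differed from epithelial cells for 6 (40.4%) and from immune cells for 6 (36.1%), and epithelial from immune cells for 8 (48.0%). The genes had been chosen with earlier results of these cells known, so the count describes them and is no test of the choice.

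*Il6* and *Cxcl1* are early targets of NF-kB, a transcription factor of the inflammatory response, and *Csf1* also responds to it. A common form of the NF-kB site, GGGA and TTCC with any 2 bases between them, was searched on both strands from 250 bases before to 50 bases after each RefSeq start. It lay in 482 of 32851 such windows (1.47%). Among the genes described here, 9 had a window, and these 3 held it. *Ccl2* had no window and was not searched. Each window below is on GRCm38, read 5′ to 3′ on the strand of its gene, with the match in capitals.

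Il6 (chr5:30013045-30013104, plus strand): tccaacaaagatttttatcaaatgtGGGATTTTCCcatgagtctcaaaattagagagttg
Cxcl1 (chr5:90891149-90891209, plus strand): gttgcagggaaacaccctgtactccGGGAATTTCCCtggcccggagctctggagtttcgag
Csf1 (chr3:107760589-107760648, minus strand): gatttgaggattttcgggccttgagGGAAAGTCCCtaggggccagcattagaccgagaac

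The match of *Il6* began 44 bases before its start, that of *Cxcl1* 71 bases (2 overlapping matches) and that of *Csf1* 154 bases. The letters TGANTCA, a form of the AP-1 site, occurred in 7.81% of all windows and, of these genes, in that of *Il6*, 249 bases before the start. A match describes the letters only, and binding was not measured.

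*Il6*, which encodes an inflammatory cytokine that signals through gp130, was a stromal transcript. *Il6* (ENSMUSG00000025746, chromosome 5, 30013114 to 30019981) stood at 209 and 29.0 CPM in adventitial, 162 and 18.6 CPM in intermediate and 62.0 and 14.5 CPM in alveolar cells of libraries 1 and 2. Within each library the level fell from adventitial through intermediate to alveolar cells, although the adventitial level of library 2 lay below the alveolar level of library 1. Adventitial cells were 3.37-fold and 2.00-fold higher than alveolar cells (log2 fold change 1.46 ± 0.366 SE, adjusted p = 0.0169, edgeR). Alveolar cells were called above immune cells, which held 1.14 and 10.5 CPM, but the fold was 54.3 in library 1, against a single immune UMI, and 1.39 in library 2 (log2 fold change 1.63 ± 0.618 SE, adjusted p = 0.0355, edgeR). No *Il6* UMI was seen in the 56 and 360 endothelial cells, so the adventitial level was at least 8.32-fold and 17.9-fold higher, set against 3 UMIs per library. In epithelial cells *Il6* stood at 8.44 and 0.732 CPM, the first from 73 UMIs in 5.27% of the cells. *Cxcl14*, a more abundant stromal transcript, stood at 2.54 CPM in the same epithelial cells, so that *Il6* UMIs were 332% of *Cxcl14* UMIs there against 6.38% in alveolar stromal cells of that library. Immune cells gave 1 UMI in library 1 and 19 in library 2, of which 16 lay in 3 cells of no marker list.

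*Cxcl1*, a ligand of Cxcr2 that attracts neutrophils, was also higher in adventitial than in alveolar cells. *Cxcl1* (ENSMUSG00000029380, chromosome 5, 90891241 to 90893115) was at 131 and 44.4 CPM in adventitial and at 55.3 and 20.3 CPM in alveolar cells, 2.36-fold and 2.18-fold apart (log2 fold change 1.22 ± 0.219 SE, adjusted p = 0.0011, edgeR). Levels in intermediate cells were 131 and 33.7 CPM, near the adventitial level in library 1 and below it in library 2. In immune cells *Cxcl1* stood at 28.5 and 24.8 CPM, and 24 of 25 and 31 of 45 of these UMIs came from C1q macrophage-like cells. There it reached 137 and 214 CPM, but in 6 of 44 and 5 of 23 cells only. Alveolar and immune cells did not differ by the test (log2 fold change of immune over alveolar 0.02 ± 0.282 SE, adjusted p = 0.972, edgeR).

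*Csf1*, the growth factor of macrophages, was spread over stromal, endothelial and immune cells. *Csf1* (ENSMUSG00000014599, chromosome 3, 107741048 to 107760469) was at 52.8 and 72.0 CPM in adventitial, 32.3 and 56.7 CPM in intermediate and 21.7 and 30.3 CPM in alveolar cells. The adventitial and alveolar ranges did not overlap, and the fold was 2.43 and 2.38 (log2 fold change 1.29 ± 0.198 SE, adjusted p = 2.51e-04, edgeR). Endothelial cells carried 16.7 CPM, from 2 UMIs, and 34.1 CPM, and immune cells 26.2 and 25.4 CPM. Neither group differed from alveolar cells by the test (adjusted p = 0.987 and 0.49, edgeR). Within the immune group neutrophil-like cells held 20 of 23 and 23 of 46 *Csf1* UMIs, at 236 and 281 CPM. Epithelial cells were lowest at 4.39 and 2.93 CPM, below alveolar cells by the test (log2 fold change of alveolar over epithelial 1.97 ± 0.288 SE, adjusted p = 1.45e-05, edgeR).

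*Cxcl14*, a chemokine that many tissues express at rest, was abundant in both stromal groups. *Cxcl14* (ENSMUSG00000021508, chromosome 13, 56288643 to 56296551) stood at 1308 and 1548 CPM in adventitial and at 972 and 1088 CPM in alveolar cells. Both libraries placed adventitial cells higher, 1.35-fold and 1.42-fold, and the ranges did not overlap, but the difference did not pass the test (log2 fold change 0.50 ± 0.236 SE, adjusted p = 0.266, edgeR). A *Cxcl14* UMI was present in 86.8% and 96.2% of adventitial and in 81.6% and 91.5% of alveolar cells. After each cell was thinned to 2000 UMIs the shares were 72.6% and 80.9% against 70.2% and 72.4%. Alveolar cells exceeded endothelial cells 16.6-fold and 27.2-fold (log2 fold change 4.84 ± 0.328 SE, adjusted p = 1.58e-09, edgeR). Over the 10 sums of 5 groups and 2 libraries the genes most like *Cxcl14* in log2(CPM + 1) were the matrix genes *Mgp* (Pearson r = 0.999) and *Dpt* (r = 0.995), and *Inmt* (r = 0.994). These correlations describe 10 sums that share libraries and cell groups.

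*Cxcl12*, the ligand of Cxcr4 that holds leukocytes and progenitors in place, was highest per UMI in endothelial cells. *Cxcl12* (ENSMUSG00000061353, chromosome 6, 117168535 to 117181367) was at 602 and 476 CPM in endothelial, 138 and 133 CPM in adventitial, 105 and 94.6 CPM in intermediate and 42.0 and 38.4 CPM in alveolar cells. None of these ranges overlapped. By number of UMIs in single-gate cells, stromal cells held more of it than endothelial cells. Of all *Cxcl12* UMIs, alveolar cells held 37.6% and 14.2%, adventitial cells 33.3% and 14.7% and endothelial cells 2.75% and 8.38%. Barcodes of several gates, in none of these shares, held 8.4% and 55.0%. Those with exactly a stromal and an endothelial gate held 4.28% and 40.3%, so the larger holder over all barcodes of library 2 was not settled. Endothelial cells were 4.38-fold and 3.57-fold above adventitial cells (log2 fold change 1.67 ± 0.255 SE, adjusted p = 4.54e-05, edgeR). Adventitial cells were 3.28-fold and 3.46-fold above alveolar cells (log2 fold change 1.78 ± 0.241 SE, adjusted p = 7.08e-05, edgeR). General capillary-like cells carried 862 CPM (41 cells) and 586 CPM (265 cells), whereas aerocyte-like cells, the gas exchange capillary cells, had no UMI in 11 cells of library 1 and 187 CPM in 59 cells of library 2. For 11 cells the counting interval reached 119.9 CPM. The library 1 endothelial level rests on 72 UMIs, with a 95% interval of 471 to 759 CPM. *Cxcl12* was not detected in immune cells of library 1 and reached 1.65 CPM in library 2.

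**Figure D2:**
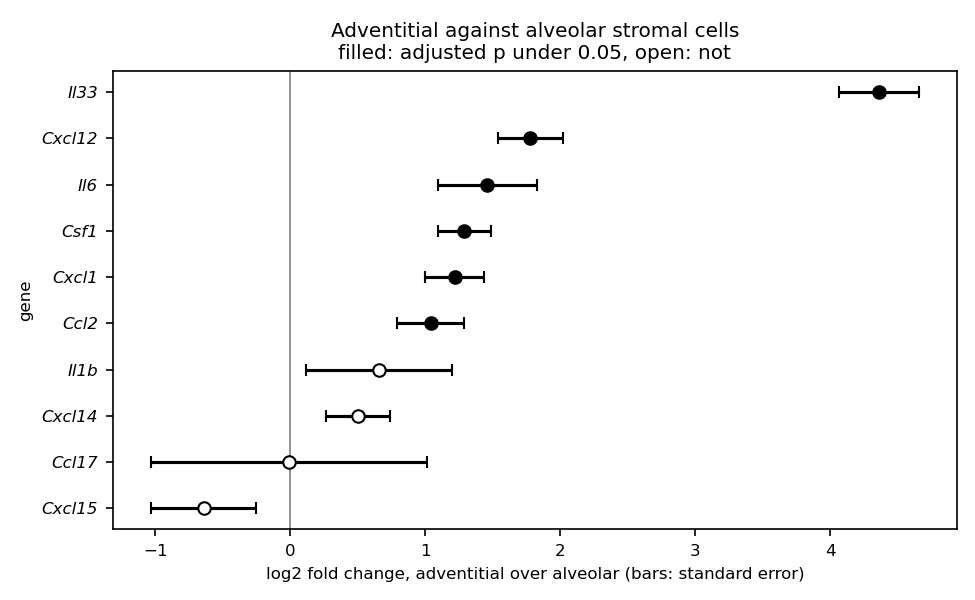
Log2 fold change of adventitial over alveolar stromal cells for each gene (x axis), with its standard error; filled points passed the test and open points did not. *Il33* lies at 4.36, 5 genes lie between 1.04 and 1.78, and *Cxcl14*, *Il1b*, *Ccl17* and *Cxcl15* are open.

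Adventitial cells were thus higher than alveolar cells for 6 of the 10 genes, and the other 4 were not called. Over all genes tested, 8.71% were called in either direction, 5.76% higher in adventitial and 2.95% higher in alveolar cells. The median log2 fold change was 1.13 over the 10 genes and -0.03 over all genes. As the groups are set by a UMI count of *Dcn*, adventitial cells were also deeper, with a median of 6034 UMIs per cell against 3958 in library 1 and 10655.5 against 6545 in library 2. When every cell was thinned to 2000 UMIs before the gates, 5 of these 6 calls held, and that of *Ccl2* did not (adjusted p = 0.279, edgeR). Without the library as a block, the call of *Il33* alone held, and with DESeq2 those of *Il33* and *Csf1*. Markers of epithelium and red cells differed between the groups as well. *Sftpc* was at 250.3 and 97.1 CPM in adventitial against 493 and 121 CPM in alveolar cells, and *Hbb-bs* at 0.316 and 1.04 CPM against 52.8 and 188 CPM. Their part in the levels of the 10 genes was not tested.

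*Il33* encodes an alarmin stored in the nucleus of barrier cells and released on damage, which acts through the receptor of *Il1rl1*. *Il33* (ENSMUSG00000024810, chromosome 19, 29925114 to 29960718) had an epithelial and an adventitial source. It stood at 194 and 242 CPM in epithelial cells, with a UMI in 71.7% and 77.2% of them, and at 18.3 and 12.7 CPM in adventitial cells, with a UMI in 8.36% and 9.12%. Alveolar stromal cells carried 0.555 and 0.877 CPM, from 13 and 34 UMIs. Epithelial cells exceeded adventitial cells 10.6-fold and 19.1-fold (log2 fold change 4.34 ± 0.247 SE, adjusted p = 8.34e-11, edgeR). Adventitial cells exceeded alveolar cells 33.0-fold and 14.5-fold (log2 fold change 4.36 ± 0.295 SE, adjusted p = 4.21e-08, edgeR). *Il33* UMIs were 7.32% and 13.1% of *Sftpc* UMIs in adventitial cells and 0.0793% and 0.124% in epithelial cells. Adventitial cells with a *Pi16* UMI had 42.8 and 27.8 CPM of *Il33*, and those without 11.2 and 11.3 CPM, with counting intervals of 32.8 to 55.0 and 18.5 to 40.2 against 8.45 to 14.6 and 9.32 to 13.5 CPM. This split by *Pi16*, which itself rises with depth, has no test.

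*Cxcl15*, or lungkine, a chemokine of mouse airway and alveolar epithelium, was an epithelial transcript. *Cxcl15* (ENSMUSG00000029375, chromosome 5, 90794534 to 90803067) stood at 6616 and 5749 CPM in epithelial cells and was present in 100% and 94.1% of them. The 95 alveolar type 2-like cells of library 2 all carried it. Endothelial cells came next at 58.6 and 5.95 CPM, from 7 and 11 UMIs (log2 fold change of epithelial over endothelial 9.57 ± 0.524 SE, adjusted p = 1.54e-10, edgeR). Low levels were found in every other group, 2.50 to 18.2 CPM. In alveolar stromal cells *Cxcl15* UMIs were 2.67% and 2.98% of those of *Sftpc*, the surfactant protein C gene, and in epithelial cells 2.70% and 2.93%. Adventitial cells had 3.03% and 2.58% and immune cells 3.81% and 2.37%, the immune values from 16 and 5 *Cxcl15* UMIs. Endothelial cells had 11.3% and 5.58%, from the few UMIs above. The part of free epithelial RNA in these low levels was not tested. The genes most like *Cxcl15* over the 10 sums were *Sftpa1*, *Sftpc* and *Sfta2* (r = 0.989, 0.989 and 0.986).

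*Il1b*, the IL-1 beta gene of activated myeloid cells, came from the immune group. *Il1b* (ENSMUSG00000027398, chromosome 2, 129364570 to 129371139) stood at 2364 and 1009.9 CPM in immune cells and at most 1.08 CPM in any other group. Immune cells exceeded adventitial cells 2493-fold and 1671-fold (log2 fold change 11.23 ± 0.414 SE, adjusted p = 2.28e-12, edgeR). In epithelial cells there was no *Il1b* UMI in either library. Neutrophil-like cells carried 15229 and 12200.3 CPM, every one of the 58 and 31 cells had a UMI, and they held 62.3% and 54.5% of the group's *Il1b* UMIs. Dendritic-like cells followed at 2482 and 862 CPM, monocyte-like cells at 1109.6 and 949 CPM and C1q macrophage-like cells at 679 and 939.5 CPM. The 4 genes listed for IL-1 beta processing also had their highest mean level in immune cells, and 3 of them passed the test against the next group. Over all genes the called share was 33.0%. *Nlrp3*, the inflammasome sensor, was at 245 and 87.7 CPM there and at most 0.541 CPM elsewhere, *Pycard*, its adaptor, at 177 and 180.4 CPM, and *Casp1*, the protease, at 51.3 and 39.2 CPM. *Gsdmd*, the pore-forming gasdermin D, was at 51.3 and 39.7 CPM in immune and 41.8 and 48.7 CPM in endothelial cells, and did not pass the test.

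**Figure D3:**
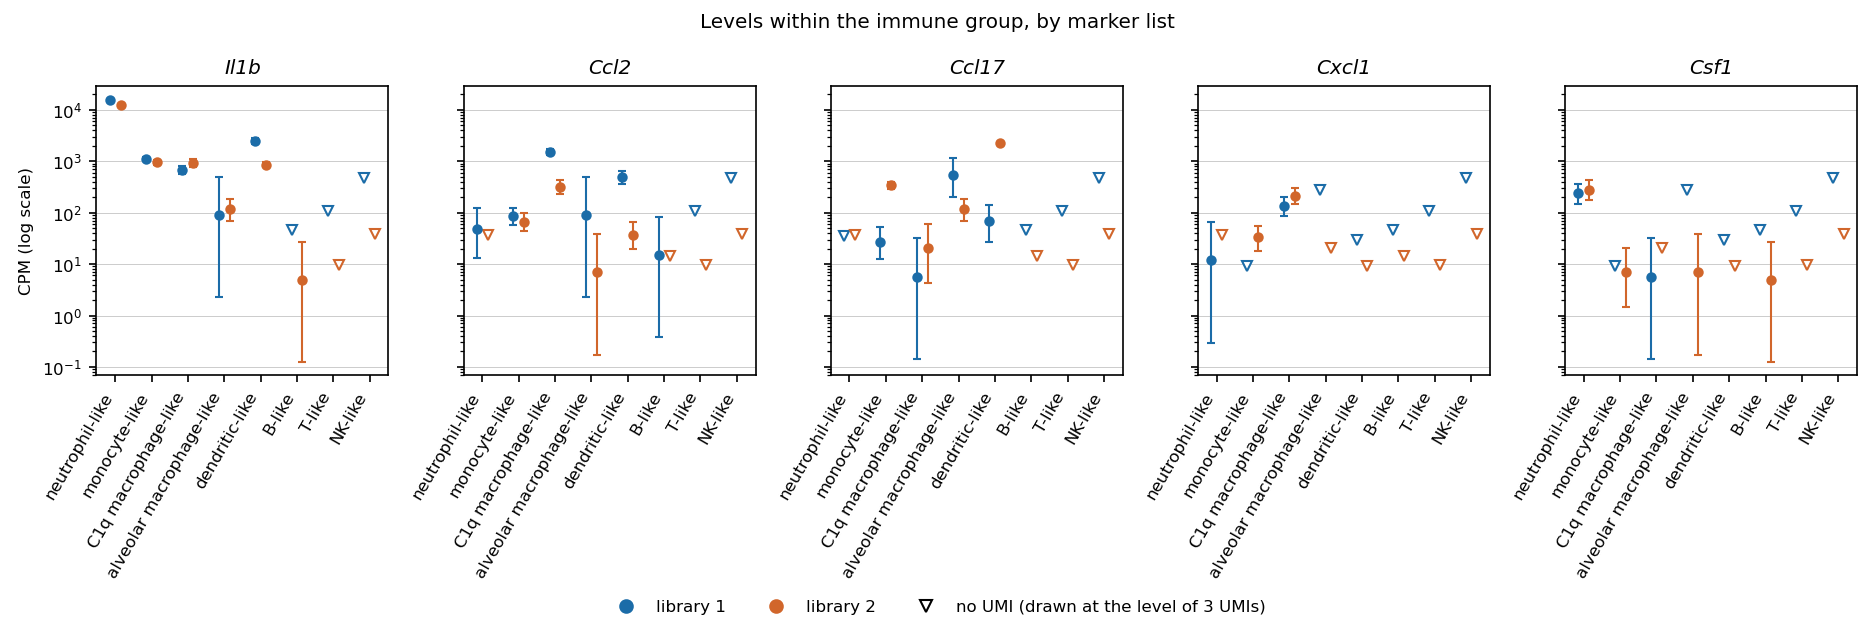
Levels (CPM, log scale) of *Il1b*, *Ccl2*, *Ccl17*, *Cxcl1* and *Csf1* in immune cells split by marker lists, with 95% Poisson intervals; open triangles mark no UMI at the level of 3 UMIs. *Il1b* is highest in neutrophil-like, *Ccl2* in C1q macrophage-like cells, and *Ccl17* of library 2 in dendritic-like cells at 2231 CPM.

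*Ccl2*, the monocyte attractant that acts on Ccr2, was highest per UMI in immune cells. Among single-gate cells, stromal cells, few of which carried it, held more of its UMIs than immune cells. Single-gate stromal cells held 1435 of 2354 *Ccl2* UMIs in library 1 and 334 of 798 in library 2. Single-gate immune cells held 352 and 87. Barcodes of several gates, in neither count, held 545 and 376. Of these, 521 and 179 lay in barcodes with exactly a stromal and an immune gate. *Ccl2* (ENSMUSG00000035385, chromosome 11, 82035571 to 82037453) stood at 401 and 48.0 CPM in immune, 54.7 and 12.3 CPM in adventitial and 42.1 and 3.61 CPM in alveolar cells. The immune group of library 2 lay below the adventitial group of library 1, but within each library immune cells were higher, 7.34-fold and 3.89-fold (log2 fold change 2.69 ± 0.269 SE, adjusted p = 2.69e-07, edgeR). Without the library block this call was lost (adjusted p = 0.0631, edgeR). C1q macrophage-like cells, at 1501 and 318 CPM, held 74.7% and 52.9% of the immune *Ccl2*. Endothelial cells had no *Ccl2* UMI in either library, and epithelial cells had 2 and 0. In stromal cells the transcript was concentrated in very few cells. In library 1, 39 of 1017 adventitial and 98 of 5805 alveolar cells had a *Ccl2* UMI, and the 5 highest cells held 79.8% and 71.8% of the UMIs. In library 2 the numbers were 13 of 998 and 40 of 5545 cells, and the 5 highest held 94.4% and 67.1%. One alveolar cell of library 1 alone carried 395 of 986 UMIs. Without the highest cell of each group, chosen after the values were seen, adventitial cells were at 37.0 and 4.93 CPM and alveolar cells at 25.2 and 1.60 CPM. The difference between adventitial and alveolar cells (log2 fold change 1.04 ± 0.251 SE, adjusted p = 0.0129, edgeR) was lost with a gate of at least 5 UMIs (0.39, adjusted p = 0.456, edgeR).

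*Ccl17*, a ligand of Ccr4 made by dendritic cells, stood higher in the immune group than in the other single-gate groups, but that group held only 7.24% and 14.8% of its UMIs. *Ccl17* (ENSMUSG00000031780, chromosome 8, 94810453 to 94812036) stood at 30.8 and 504 CPM in immune cells and at most 1.24 CPM in any other group (log2 fold change of immune over adventitial 8.57 ± 0.462 SE, adjusted p = 1.26e-10, edgeR). The level of library 1 was 0.0611 of that of library 2 (95% counting interval 0.0400 to 0.0894). In library 2, 25 of 32 dendritic-like cells carried it, at 2231 CPM, and in library 1, 4 of 17, at 68.1 CPM. The 2 alveolar macrophage-like cells of library 1 held 6 of its 27 immune UMIs, and monocyte-like cells stood at 27.4 and 338 CPM. *Ccl22*, which encodes the other Ccr4 ligand, was among the 3 genes most like *Ccl17* over the 10 sums (r = 0.993). It stood at 14.8 and 181 CPM in immune cells.

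**Figure D4:**
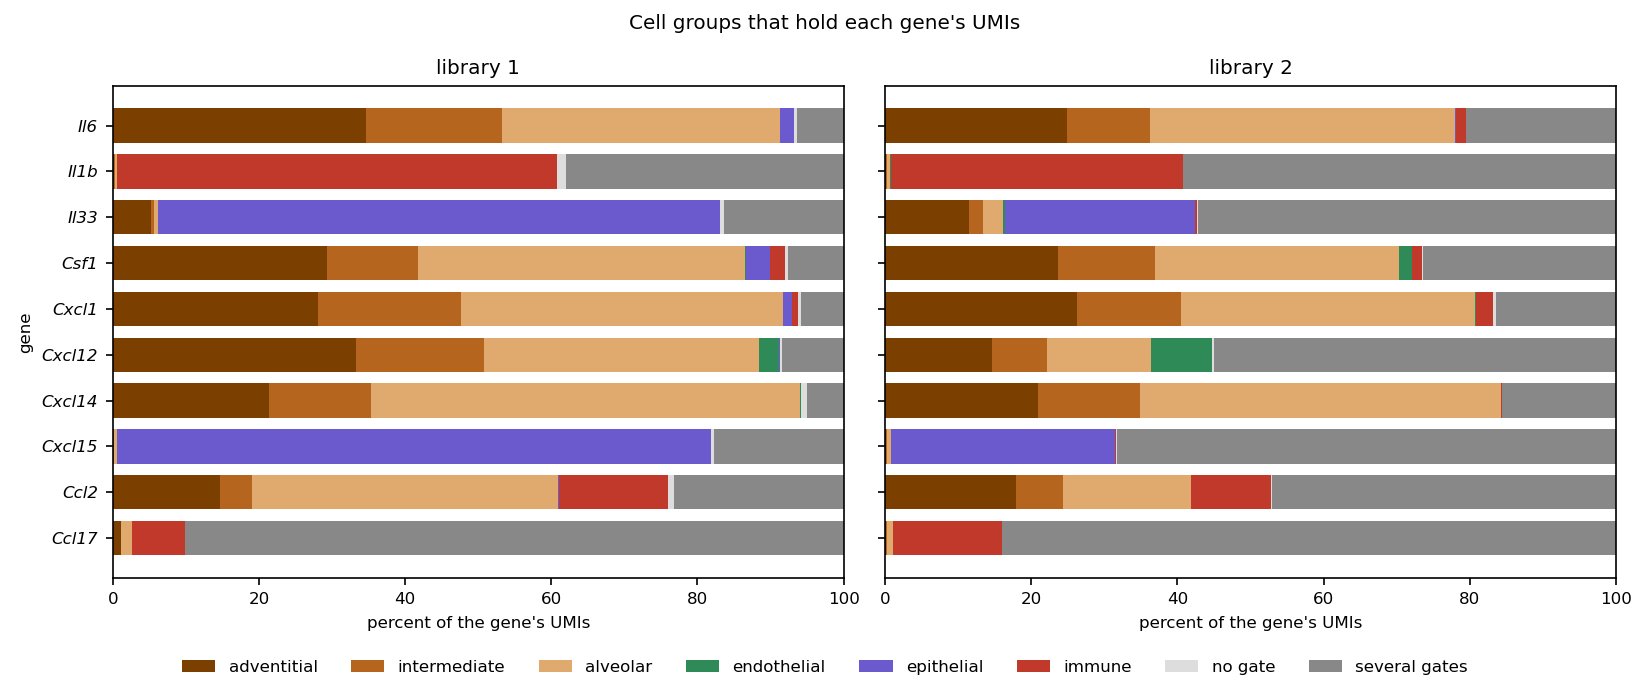
Percent of all UMIs of each gene held by each cell group, 1 panel per library, over all kept cells. Barcodes of several gates (dark grey) hold 90.1% and 84.1% of the *Ccl17* UMIs, 5.1% and 15.6% of those of *Cxcl14*.

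Most *Ccl17* UMIs lay outside the single-gate groups. Barcodes of several gates held 90.1% of them in library 1 and 84.1% in library 2, while those barcodes carried 9.1% and 31.9% of all UMIs. Cells with at least 3 *Ccl17* UMIs, a choice made after the values were seen, numbered 24 and 215, and 24 and 214 of these passed the immune gate. Of them, 83.3% and 83.7% also passed another gate, against 121 of 383 and 300 of 600 remaining cells of the immune gate. Their median depth was 13005 and 19909 UMIs, against 4090 and 8663. They carried *Cd74*, the invariant chain of antigen-presenting cells, in 100% of cells, but also *Col1a2* at 661 and 829 CPM and *Epcam* at 74.5 and 120.4 CPM. The remaining cells of the immune gate had *Col1a2* at 393 and 522 CPM and *Epcam* at 24.3 and 27.5 CPM, and single-gate stromal cells had *Col1a2* at 1204 and 1542 CPM. The other epithelial gate genes did not follow *Epcam*. *Cdh1* was at 0 and 14.6 CPM in the *Ccl17* cells against 11.6 and 14.2 CPM in the remaining ones. *Lamp3* was lower in the *Ccl17* cells, at 0 and 15.3 CPM against 59.1 and 43.0 CPM. Whether such a barcode is 1 cell or several cannot be told apart here.

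The same barcodes weighed on other genes as well. In library 2, barcodes of several gates held 68.3% of *Cxcl15*, 59.3% of *Il1b*, 57.1% of *Il33*, 55.0% of *Cxcl12* and 47.1% of *Ccl2* UMIs, against 15.6% of *Cxcl14* and 20.5% of *Il6*. In library 1, where these barcodes held 9.1% of all UMIs, the shares were 17.7% of *Cxcl15*, 37.9% of *Il1b*, 16.3% of *Il33*, 8.4% of *Cxcl12* and 23.2% of *Ccl2*. The 931 barcodes of library 2 with both a stromal and an endothelial gate alone carried 40.3% of its *Cxcl12*, at 282 CPM, between the single-gate endothelial and adventitial levels.

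The levels of *Il6*, *Cxcl1* and *Ccl2* moved with the library. In adventitial cells library 1 was 7.19-fold (95% counting interval 6.38 to 8.13) above library 2 for *Il6*, 2.94-fold (2.63 to 3.29) for *Cxcl1* and 4.43-fold (3.63 to 5.42) for *Ccl2*. In alveolar cells the ratios were 4.27 (3.87 to 4.71), 2.72 (2.49 to 2.98) and 11.7 (9.76 to 14.0). These intervals cover counting error only and leave out the spread between cells. For *Ccl2* the 5 highest cells held 79.8% and 94.4% of the adventitial and 71.8% and 67.1% of the alveolar UMIs. *Cxcl15* had ratios of 3.03 and 3.64 in the same groups, and *Sftpc* stood at 250.3 against 97.1 CPM and 493 against 121 CPM. *Cxcl12* was at 1.03 and 1.09, and *Csf1* and *Cxcl14* were lower in library 1, at 0.733 and 0.717 and at 0.845 and 0.893. Among 5243 genes at 20 CPM or more in adventitial cells of both libraries, 99.96% had a smaller ratio than *Il6* and 99.5% a smaller one than *Cxcl1*, with a median ratio of 0.917. With 1 library on each side, these ratios compare libraries and carry no test.

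**Figure D5:**
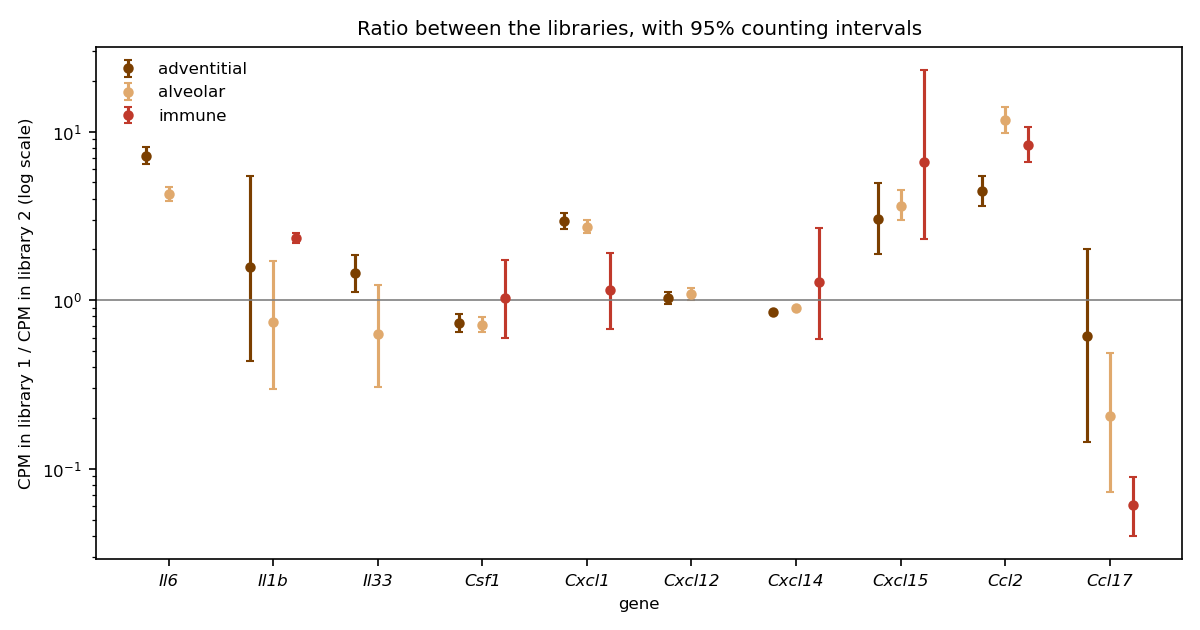
Ratio of the level in library 1 to that in library 2 (log scale) for each gene in adventitial, alveolar and immune cells, with 95% counting intervals; a gene with too few UMIs in a library is not drawn. *Il6*, *Cxcl1*, *Cxcl15* and *Ccl2* lie above 1 in the stromal groups, *Cxcl12* near 1, and *Ccl17* of immune cells at 0.0611.

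Immediate early genes, many of them transcription factors, are switched on within minutes of a stimulus and of tissue digestion. In the stromal groups most of those listed moved in the same direction. Of 13 such genes, 10 were higher in library 1 in adventitial and 10 in alveolar cells, with median ratios of 1.46 and 1.47. Among all genes at 20 CPM or more, 2111 of 5243 were higher in library 1 in adventitial and 2395 of 5388 in alveolar cells. Of 10 genes of NF-kB feedback and targets, 8 were higher in library 1 in adventitial cells (median ratio 1.40) and 7 in alveolar cells (1.24). *Fos* stood at 5762 and 3696 CPM in adventitial cells of libraries 1 and 2, and *Junb* at 4615 and 3020 CPM. *Jun* stood at 4177 and 3628 CPM and *Jund* at 2284 and 2030 CPM. The summed level of the list was 28840.2 and 22180.0 CPM in adventitial and 31600.3 and 21769.6 CPM in alveolar cells. In immune cells 4 of the 13 were higher in library 1.

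Within a library, *Il6* and *Cxcl1* were more often found in cells that carried *Atf3*, an early stress gene, after thinning to 2000 UMIs. In adventitial cells of library 1, 27.3% of 710 cells with an *Atf3* UMI carried *Il6*, against 5.52% of 290 without. In library 2 *Il6* was found in 6.99% of 472 such cells, against 2.09% of 526. *Cxcl1* was carried by 15.6% with *Atf3* against 5.52% without (library 1) and by 9.53% against 4.56% (library 2). *Cxcl12*, by contrast, was carried by 20.8% against 21.4% and by 22.2% against 19.4%. The difference was not particular to *Atf3*. Split by *Nfkbiz*, a cofactor of NF-kB, *Il6* was found in 32.1% against 12.2% (library 1) and 6.92% against 3.24% (library 2). Split by the collagen gene *Col1a2*, it was found in 21.5% against 11.8% of 51 cells and in 4.33% against 6.90% of 29 cells. *Col1a2* is a gene of the stromal gate, so its split is no neutral control. Of the cells without *Atf3*, 5.52% in library 1 and 2.09% in library 2 carried *Il6*. These splits were chosen after the values were seen, cells of 1 library are not replicates, and the part of the early genes in the library difference was not tested. *Il6* and *Cxcl1* were also found together. In alveolar cells 16.7% and 10.2% of the *Il6* carriers had a *Cxcl1* UMI, against 4.21% and 2.03% of the remaining cells.

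Receptors of these ligands were described by the same groups. Of 13 receptor genes listed, 11 passed the filter on low counts, and 7 of them were called in their highest group over the second, 6 of these in immune cells. Over all genes the called share was 33.0%. *Csf1r*, the receptor of the *Csf1* product, was at 306 and 177 CPM in immune cells (log2 fold change over epithelial cells 6.21 ± 0.494 SE, adjusted p = 1.15e-08, edgeR). *Ccr2*, the receptor of the *Ccl2* product, was at 218 and 167 CPM in immune and at most 0.18 CPM in the other groups. *Cxcr4*, the receptor of the *Cxcl12* product, was at 141 and 170.4 CPM in immune cells, with 33.5 and 7.03 CPM in endothelial cells. *Il6st*, which encodes the gp130 chain of the IL-6 receptor, was present in every group, at 218 and 238 CPM in endothelial, 138 and 160 CPM in adventitial and 134 and 139 CPM in alveolar cells, and the first of these did not pass the test against the second (adjusted p = 0.217, edgeR). In the comparison of adventitial with alveolar cells, 1 of the 11 receptors was called higher and 1 lower, against 5.76% and 2.95% of all genes.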

How the data were processed

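The deposited files hold, per the labels and their headers, raw UMI counts per gene and cell barcode for each library, made by the authors with 10x Genomics 3′ v3.1 chemistry and, per the submitters' processing notes, Cell Ranger 5.0.1 on mm10. They were not normalized, and doublets were not called here. Counts were summed per group and library in Python 3.11.15 and tested in R 4.3.3 with edgeR 4.0.16 (TMM, filterByExpr, quasi-likelihood fit over 5 groups with the library as a block, Benjamini-Hochberg). The pairing comes from the design, since all groups of a library are cells of the same suspension. DESeq2 1.42.0 was an alternative. CPM intervals are exact Poisson and share intervals exact binomial, both at 95%, and cover counting error only. Cells were thinned to 2000 UMIs with a fixed seed. Subgroups took the marker list with the most UMIs, at least 3. Gene positions are from GENCODE M21 (GRCm38) and promoter windows from RefSeq (GRCm38.p6), in which 9 of the 10 genes matched. The members and gene lists were chosen with earlier results of these data known. By rule the text names the 10 members, up to 4 genes per list with the highest level and the 3 genes most like a member. Genes outside this rule were named after their values were seen. The fit was tested on simulated data.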

Additional observations from a re-analysis of the deposited data

How the results depend on the processing

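Of 396 values of the 10 genes under 9 alternatives, 380 kept their direction and their side of the threshold, 16 lost the call and 0 reversed. Without the replicate block 254 genes were called between adventitial and alveolar cells, against 1161 with it, and DESeq2 called 520. Of these, 81.5%, 66.1% and 71.9% were higher in adventitial cells. The replicate block mattered for *Il6*, *Csf1*, *Cxcl1*, *Cxcl12* and *Ccl2* between these groups (adjusted p = 0.738, 0.0658, 0.536, 0.0514 and 1 without it) and for *Cxcl1* and *Ccl2* between adventitial and immune cells (0.0794 and 0.0631). DESeq2 gave 0.877 for *Il6*, 0.104 for *Cxcl1*, 0.293 for *Cxcl12* and 0.264 for *Ccl2* between the stromal groups. Against endothelial cells it gave 0.114 for *Cxcl12*, and against immune cells 0.0898 for *Il6* and 0.051 for *Cxcl1*, each with adventitial cells. The causes were not tested. Thinning cells to 2000 UMIs, which left 10858 genes to test, gave 3709 called genes for adventitial against epithelial, 4350 for adventitial against immune, 4004 for alveolar against epithelial, 3199 for endothelial against epithelial and 3779 for epithelial against immune cells, from 6429, 6772, 6813, 5382 and 6400. Left with 1 library, the sums allow no test, and the fold change moved by more than the spread between replicates in 14 of 44 results without library 1 and in 11 of 44 without library 2. Depth limits the endothelial group most, with 56 cells in library 1, where 3 UMIs correspond to 25.1 CPM.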

Other observations

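Of 27 further chemokine genes in the files, 20 were tested, 17 were called in their highest group over the second, and 13 of these were highest in immune cells. Over all genes the called share was 33.0%. *Cxcl2*, which draws neutrophils, stood at 1764 and 871 CPM in immune cells, *Ccl5*, which attracts lymphocytes, at 173 and 2267 CPM, and *Ccl6* at 542 and 709.9 CPM. *Pf4*, platelet factor 4, stood at 470 and 129 CPM there. *Ppbp*, another platelet chemokine, was at 0 and 1.65 CPM. In adventitial against alveolar cells, 6 of the 20 tested were called higher and 1 lower, against 5.76% and 2.95% of all genes. Those named here were chosen after their values were seen. *Ccl11*, which draws eosinophils, stood at 48.0 and 14.4 CPM against 5.68 and 3.15 CPM (log2 fold change 2.68 ± 0.279 SE, edgeR), and *Ccl19* at 73.6 and 39.3 CPM against 37.4 and 29.4 CPM.

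Of 28 other cytokine genes, 19 were tested and 11 called in their highest group, against the same 33.0% of all genes. *Kitl*, stem cell factor, stood at 552 and 625 CPM in endothelial and 125 and 147 CPM in alveolar cells (log2 fold change 1.83 ± 0.197 SE, adjusted p = 6.72e-07, edgeR). *Tgfb1* was highest in immune cells, at 292 and 164 CPM. *Tnfsf13b*, the B cell survival factor BAFF, was at 186 and 222 CPM in adventitial and 141 and 146 CPM in alveolar cells, and at most 18.2 CPM in the other groups. *Flt3l*, which supports dendritic cells, was at 83.0 and 67.3 CPM in adventitial and 72.3 and 70.1 CPM in alveolar cells. Neither differed between the stromal groups by the test (adjusted p = 0.0733 and 0.87, edgeR).

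Of 10 genes of NF-kB feedback and targets, 6 were called in their highest group over the second (33.0% of all genes). *Rel*, an NF-kB subunit, stood at 379 and 212 CPM in immune cells. *Nfkbia*, the inhibitor IkB alpha, was at 975 and 1219 CPM in immune and 502 and 1158 CPM in endothelial cells, with no call between them. *Nfkbiz*, a cofactor of NF-kB at *Il6*, was highest in adventitial cells, at 395 and 266 CPM, without a call over immune cells, at 231 and 256 CPM. *Icam1*, an adhesion molecule, was at 231 and 260 CPM in epithelial and 268 and 210.5 CPM in endothelial cells. The CPM thus went opposite ways in the libraries, while the fit, on TMM-scaled totals, called it higher in epithelial cells (log2 fold change 0.80 ± 0.309 SE, adjusted p = 0.0469, edgeR).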
